A study of Mus musculus with 2 samples.

Results

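Transcripts of 31 mouse genes for cholesterol synthesis, sterol sensing, intracellular cholesterol transport, efflux and oxysterol production were compared between untreated retinal pigment epithelium (RPE) and RPE exposed to interferon gamma (IFNg). The members are all probe sets that the platform annotation gives to these genes by symbol. Of the 31 genes, 29 had a probe set, and the 29 were covered by 62 of the 45037 probe sets on the arrays. Expression of Acat2, for a cytosolic thiolase, and of Nr1h2, for the sterol receptor LXR-beta, was not analysed here, and both genes enter only the promoter search. The RPE is the pigmented layer behind the photoreceptors. Both groups were primary cultures of mouse RPE grown for 14 days in medium with serum, moved to serum-free medium overnight before RNA was taken, and described as mostly cytokeratin-positive. The second culture received IFNg at 100 U/ml for 24 h, and the first received none. The strain, age and sex of the mice, and whether eyes were pooled, are unstated in the labels, nor do they say how the serum-free night overlapped with the IFNg. Each group was 1 culture on 1 array, so no replicate error and no p-value exist, and higher and lower describe these 2 arrays.

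Cells make cholesterol from acetyl-CoA through mevalonate, farnesyl diphosphate, squalene and lanosterol. When membranes of the endoplasmic reticulum run low in cholesterol, the escort protein SCAP carries the transcription factors SREBP1 and SREBP2 to the Golgi, where proteases release their active part, and INSIG proteins hold SCAP back when sterols are plentiful. Oxysterols such as 25-hydroxycholesterol add to that brake and activate the LXR receptors, which drive the efflux pumps ABCA1 and ABCG1. The RPE takes in lipid daily with shed photoreceptor outer segments and from lipoproteins, and hands cholesterol on to the retina and the blood.

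Sterol genes differed modestly and unevenly between the arrays. Of the 29 genes, 3 passed 2-fold in the direction of higher with IFNg: the cholesterol carrier Stard4, the isomerase gene Idi1 and the synthase gene Hmgcs1. None was 2-fold lower, although the efflux pump gene Abcg1 lay just within 2-fold, and 26 lay between. The 3 genes are 10.3% of the 29, against 8.82% of the 12743 genes above the signal floor on 1 or both arrays that were 2-fold higher, so the share is near the background. For 2-fold lower the background was 4.48%. At 1.5-fold, 6 of the 29 were higher (20.7%, background 18.0%) and 2 were lower (6.9%, background 18.7%). Of the 29 genes, 19 (65.5%) had a log2 ratio above 0, against 42.5% of all measured genes. The median log2 ratio was 0.18 for the 29 genes and -0.12 for all measured genes. Here a gene's value comes from its brightest probe set (by mean log2 signal), signals under 20.4 (the floor, the pooled median of both arrays) were set to that value, and each log2 ratio is the IFNg array over the untreated array. The cultures are bulk samples, in which fewer cells of a type and less RNA per cell cannot be told apart.

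Markers of RPE and of other cell types were read on the same arrays. The IFNg response was present, with Irf1, an interferon-induced transcription factor, at signals of 319.1 and 3391.1 and the chemokine gene Cxcl9 at 32 and 9126.6 on the untreated and IFNg arrays. Of 12 RPE markers, Rpe65, Best1 and Rgr were at the floor on both arrays, while Krt18, Tyr and Krt8 had the highest mean log2 signals. Of the 9 measured, 4 were 2-fold lower with IFNg (background 4.48%). Chosen after their values were seen, these were the transthyretin gene Ttr (log2 ratio -1.60), the pigment gene Tyrp1 (-1.29) and the retinoid genes Rdh5 (-1.21) and Rlbp1 (-1.06). Tyrp1 read 21.7 with IFNg, close to the floor, and its other probe sets gave bounds of -1.45 and 0.33. Of the 9, 3 were above 0 (33.3%, against 42.5% of all measured genes), namely Krt18 (0.815), Mitf (0.59) and Krt8 (0.02). Otx2 (-0.08) and Tyr (-0.70) were lower, within 2-fold. The RPE list had a median log2 ratio of -0.70 over 9 measured genes, with summed signals of 3990 and 4290, the second raised by the keratin gene Krt18 (1390.4 and 2445.9). The 10 macrophage markers had Aif1 and Itgam at the floor on both arrays and Csf1r, Cd68 and Cd14 brightest. Ptprc, the pan-leukocyte gene, read 20.8 and 7. The 8 that were measured all had a log2 ratio below 0, against 57.5% of all measured genes, with a median of -0.76 and summed signals of 675 and 357. Ptprc, Fcer1g and Laptm5 were under the floor with IFNg, so their ratios are bounds. The brightest Csf1r probe set had a log2 ratio of -1.39, and its others had -0.28 and -0.56. The 6 fibroblast markers, led by Acta2, Col3a1 and Col1a2, summed to 51500 and 44300 with a median log2 ratio of -0.18. The 4 endothelial markers were all dim, with no signal above the 37.3 of untreated Cdh5, and had a median log2 ratio of -0.51. The part of these cell types in the sterol values was not tested.

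**Figure D1:**
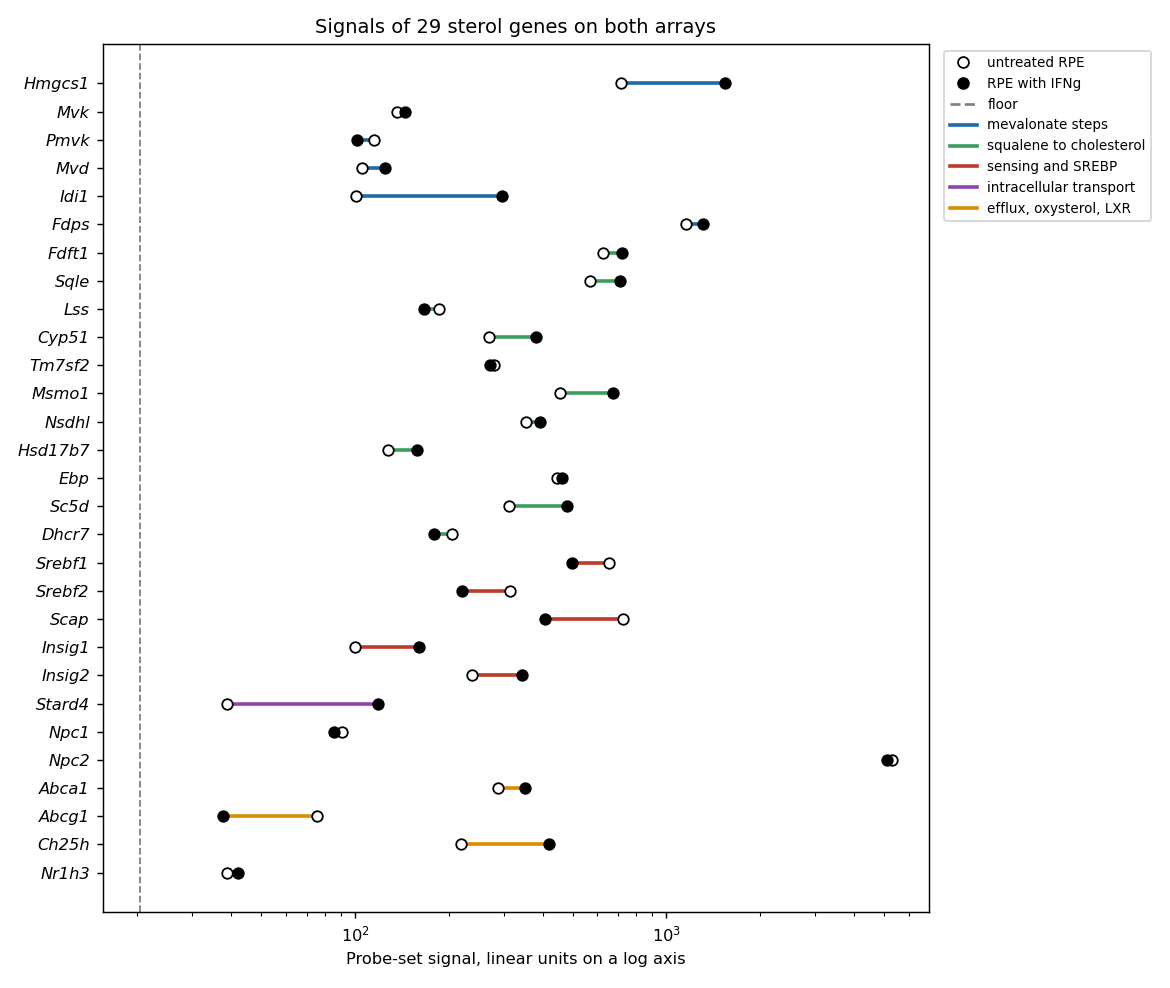
Probe-set signal of 29 sterol genes (horizontal axis, linear units on a log scale) in untreated RPE (open circles) and RPE with IFNg (filled circles), 1 array each, with lines coloured by role and the floor of 20.4 dashed. The longest lines belong to Stard4, Idi1 and Hmgcs1, which are higher with IFNg, and to Abcg1, which is lower.

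The enzymes of the mevalonate steps held the genes with the greatest excess in synthesis. Hmgcs1 encodes the cytosolic synthase that joins acetyl-CoA to acetoacetyl-CoA ahead of mevalonate. Its signal was 712.4 in untreated RPE and 1544.5 with IFNg, which is 2.17-fold higher (log2 ratio 1.12). All 4 of its probe sets above the floor were past 2-fold, with log2 ratios of 1.02, 1.04, 1.12 and 1.15. This is the closest agreement between probe sets among the genes past 2-fold, and the fifth was under the floor on both arrays, at 4.3 and 13.8. With the arrays brought to a common 75th percentile the range was 0.95 to 1.07, and 2 of the 4 passed 2-fold. Among all measured genes, 7.08% had a higher ratio than Hmgcs1.

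Idi1 encodes isopentenyl-diphosphate isomerase, which makes the reactive building block for farnesyl diphosphate. Its brighter probe set read 101 untreated and 295.5 with IFNg, or 2.93-fold higher (log2 ratio 1.55). The other read 53 and 68.3, a log2 ratio of 0.37, so the size for this gene rests on which probe set is read. The 2 probe sets averaged 0.96, which is within 2-fold.

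The remaining mevalonate enzymes lay within 2-fold. Mvk, the mevalonate kinase gene, had signals of 136.3 and 144.6 (log2 ratio 0.09), with 0.70 for a dimmer probe set. Pmvk, the phosphomevalonate kinase gene, read 115.1 and 101.6 (-0.18). Mvd, for the decarboxylase that follows, read 105.1 and 125.2 (0.25), but its other probe set read 119.1 and 92.9 (-0.36). Probe sets of Mvd therefore lay on either side of 0. Fdps, which makes farnesyl diphosphate, read 1153.5 and 1305.8 (0.18). Over the 6 genes the median log2 ratio was 0.22, and 5 were above 0.

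Of the 11 enzymes from squalene to cholesterol, none was 2-fold higher or lower by its brightest probe set. Their log2 ratios ran from -0.20 to 0.62 with a median of 0.21, and 8 were above 0. The 4 highest were Sc5d, Msmo1, Cyp51 and Sqle. Sc5d, the sterol desaturase gene, read 311.2 and 479.1, or 1.54-fold higher, with log2 ratios of 0.23 for another probe set and -0.37 for a dim one under the floor with IFNg. Msmo1, which oxidises the methyl groups of early sterols, read 454.6 and 671.2, or 1.48-fold higher, by its single probe set above the floor. Cyp51, the lanosterol demethylase gene, read 268.4 and 381.6, or 1.42-fold higher. A dimmer Cyp51 probe set read 69.7 and 164.5, or 2.36-fold higher, so both measured probe sets were above 0 with different sizes. Sqle, the squalene monooxygenase gene and a controlled step of the pathway, read 566.2 and 710.3, or 1.25-fold higher (log2 ratio 0.33).

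The other 7 enzymes were closer to equal on the arrays. Fdft1, which makes squalene, read 623.2 and 721.2, and its 2 measured probe sets gave log2 ratios of 0.21 and 0.17. Hsd17b7, a sterol ketone reductase gene, read 128 and 158.2 (0.31), with 0.09 and -0.39 for dimmer probe sets. Nsdhl, for the dehydrogenase that acts beside Msmo1, read 353.3 and 393 (0.15). Ebp, the sterol isomerase gene, read 445.9 and 463.3 (0.06). These 4 had values slightly above 0 by their brightest probe set, although Ebp was at -0.02 with a common 75th percentile. Lower on the IFNg array were Tm7sf2, a sterol reductase gene, at 280.2 and 270.5 (-0.05), Lss, the lanosterol synthase gene, at 185.4 and 166.3 (-0.16), and Dhcr7, the last reductase of the pathway, at 205.4 and 178.8 (-0.20). The brightest probe sets of Lss and Hsd17b7 have IDs that mark sequence shared between transcripts. Without that mark, a dim Lss probe set read 23.8 and 31.9 (0.42), and Hsd17b7 was at 0.09. Over all 17 measured synthesis enzymes, 13 had a log2 ratio above 0 (76.5%, against 42.5% of all measured genes). Of the 17, 2 were 2-fold higher (11.8%, near the background of 8.82%) and none was 2-fold lower (background 4.48%).

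**Figure D2:**
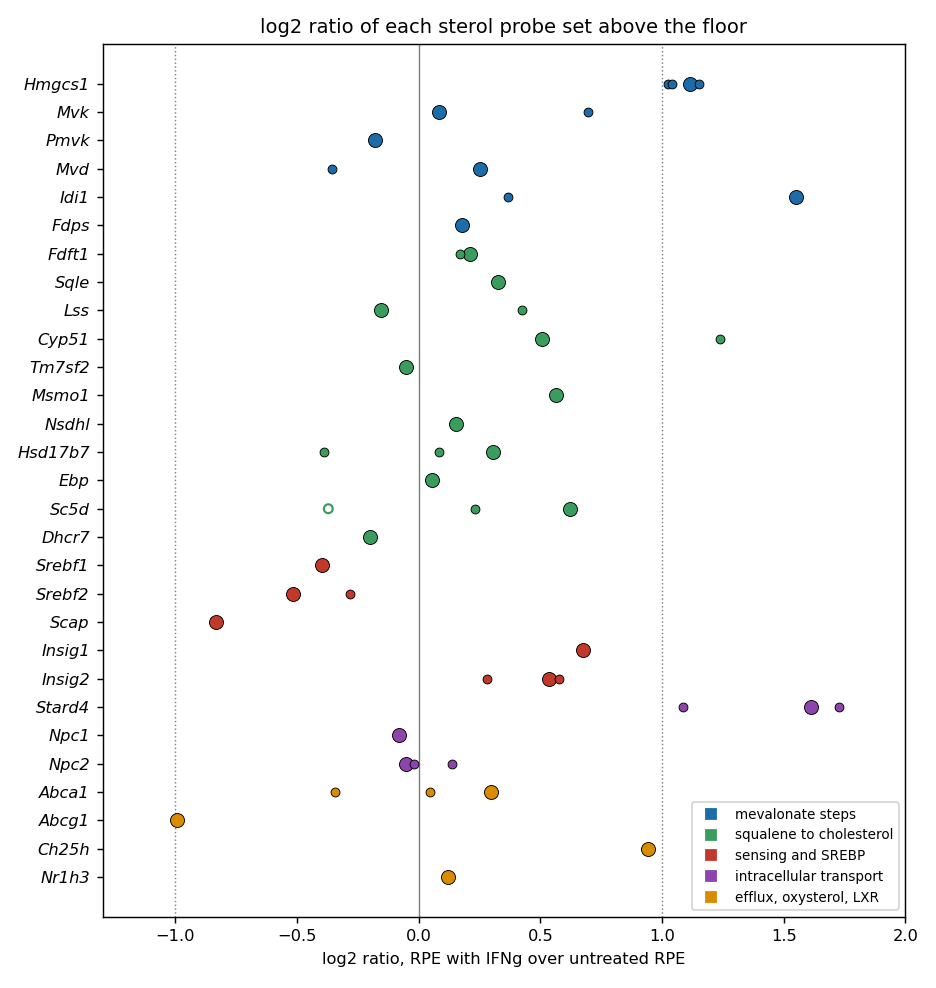
log2 ratio of RPE with IFNg over untreated RPE (horizontal axis) for each sterol probe set above the floor on 1 or both arrays, by gene. The large point is the gene's brightest probe set, an open point has 1 array at the floor and is a bound, and dotted lines mark 2-fold; the Hmgcs1 points lie together past 2-fold, those of Stard4 lie past 2-fold with more spread, and those of Idi1 are far apart.

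By probe set, 9 of 51 were at least 2-fold higher, namely 4 of Hmgcs1, 3 of Stard4 and 1 each of Idi1 and Cyp51, and none was 2-fold lower. That is 17.6%, against 9.36% of all 22273 measured probe sets that name 1 gene, of which 4.69% were 2-fold lower. Probe sets of a gene share its RNA, so these are not 9 independent values. The spread between probe sets of the same gene, which can read different parts of its transcripts, had an SD of 0.34 in log2 ratio over the 14 sterol genes with 2 or more above the floor on both arrays. It was 0.44 over 4419 genes of the whole array. Log2 ratios of single genes under that size are within this spread. The spread is technical and holds no variation between cultures, so a ratio above it is not shown to exceed that variation.

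Upstream sequence is shown for Hmgcs1, Idi1 and Cyp51, the synthesis genes with a probe set past 2-fold, for Insig1, the sensing gene with the highest ratio, and for Srebf2, the gene of the sterol-responsive factor itself, which was lower. Each run is the 250 bases before the transcription start in RefSeq on build GRCm38.p6, read 5′ to 3′ along the gene. The windows are chr13:119690101-119690350 for Hmgcs1 (plus strand), chr13:8885356-8885605 for Idi1 (plus strand), chr5:4104698-4104947 for Cyp51 (minus strand), chr5:28071162-28071411 for Insig1 (plus strand) and chr15:82147019-82147268 for Srebf2 (plus strand). Capitals mark the sterol regulatory element core TCACNCCAC, to which SREBPs bind, and the CCAAT box of the cofactor NF-Y, each on either strand.
Hmgcs1: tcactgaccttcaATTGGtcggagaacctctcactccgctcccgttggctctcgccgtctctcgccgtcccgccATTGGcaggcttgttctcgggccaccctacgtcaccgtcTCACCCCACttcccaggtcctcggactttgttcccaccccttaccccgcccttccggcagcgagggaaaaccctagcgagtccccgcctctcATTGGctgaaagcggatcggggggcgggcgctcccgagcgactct
Idi1: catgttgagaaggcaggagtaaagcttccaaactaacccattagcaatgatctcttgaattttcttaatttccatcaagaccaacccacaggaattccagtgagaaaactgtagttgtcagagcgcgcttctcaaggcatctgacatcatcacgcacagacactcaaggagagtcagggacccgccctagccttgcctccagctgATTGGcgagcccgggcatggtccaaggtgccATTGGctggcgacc
Cyp51: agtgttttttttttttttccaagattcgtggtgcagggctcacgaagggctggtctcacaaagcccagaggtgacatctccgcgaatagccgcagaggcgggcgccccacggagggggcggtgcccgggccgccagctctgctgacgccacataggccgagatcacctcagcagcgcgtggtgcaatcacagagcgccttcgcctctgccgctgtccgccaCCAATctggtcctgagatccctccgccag
Insig1: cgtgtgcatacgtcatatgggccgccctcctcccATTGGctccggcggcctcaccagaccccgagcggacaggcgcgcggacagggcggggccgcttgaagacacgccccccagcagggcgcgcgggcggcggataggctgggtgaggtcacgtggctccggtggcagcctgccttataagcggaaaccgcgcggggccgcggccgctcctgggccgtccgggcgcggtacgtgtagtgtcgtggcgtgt
Srebf2: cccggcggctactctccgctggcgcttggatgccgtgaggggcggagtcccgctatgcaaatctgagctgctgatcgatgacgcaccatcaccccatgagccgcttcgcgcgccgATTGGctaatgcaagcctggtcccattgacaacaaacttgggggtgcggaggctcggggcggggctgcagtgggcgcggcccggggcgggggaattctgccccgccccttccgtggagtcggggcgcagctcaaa

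Hmgcs1 was the only one of the 25 sterol genes with a promoter entry whose window held TCACNCCAC, at bases 137 to 129 before the start, and it also held 3 CCAAT boxes. The shorter core CACCCCAC, which overlaps it, was found for Hmgcs1 and Acat2. Of 34 member promoter windows (some genes have several starts), 2.94% held TCACNCCAC, against 1.05% of all 32851 windows. CCAAT stood in 58.8% of member windows, against 33.8% of all windows and 34.9% of the 13141 windows of genes measured on these arrays. It was found for 14 of 15 synthesis enzymes with an entry, whatever their ratio. The GC box GGGCGG stood in 70.6% of member windows, against 32.7% of all and 55.9% of those of measured genes, and the E-box CACGTG in 17.6% against 6.02% and 7.98%. Of interferon-type motifs, TTCNNNGAA (GAS) and the ISRE motif each stood in 1 of the 34 member windows (2.94%), in Ebp. Among all windows the shares were 7.02% and 2.98%, and among those of measured genes 5.73% and 2.49%. The direct-repeat motif of LXR was found in none, and in 0.0152% of all windows. Both strands were searched for exact matches to each motif, and a match is a description of these letters. Variants of a motif and bases outside the window were not searched, so a window without a match may still hold a variant site. Fdps, Fdft1, Sqle, Stard4, Npc1 and Abcg1 had no entry.

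The 5 sensing genes lay on both sides of 0, all within 2-fold. The escort gene Scap and the SREBP genes were lower with IFNg, and both INSIG genes were higher. Scap read 726.8 untreated and 407.3 with IFNg, or 1.78-fold lower (log2 ratio -0.83), by its single probe set above the floor. Only 8.06% of measured genes had a lower ratio. With probe sets averaged, which takes in one at the floor, Scap was at -0.42. Srebf2, for the factor that chiefly drives cholesterol synthesis genes, read 314.9 and 219.8, or 1.43-fold lower, and its other probe set read 260.8 and 214.2 (log2 ratios -0.52 and -0.28). Srebf1, for the factor that chiefly drives fatty acid synthesis genes, read 653.4 and 496.6, or 1.32-fold lower. The log2 ratio of Srebf1 (-0.40) and that of the second Srebf2 probe set are smaller than the spread between probe sets over the whole array (0.44).

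Insig1, a direct SREBP target whose protein retains SCAP, read 100.3 and 159.9, or 1.59-fold higher (log2 ratio 0.67), by its single probe set. Insig2, its relative, read 236.8 and 342.9, or 1.45-fold higher, and its 3 probe sets agreed in direction with log2 ratios of 0.28, 0.53 and 0.58. Across the 5 sensing genes, Insig1 and Insig2 were above 0 and Srebf1, Srebf2 and Scap below 0 under every alternative tried. Most alternatives could not have reversed these signs. Insig1 and Srebf1 have 1 probe set each, and measured probe sets of the others agreed in sign. The brightest probe set of each gene read above every floor tried. Only a change of scaling could bear on the signs, and unscaled values were the same as scaled ones.

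Among transport genes Stard4 stood apart. It encodes a soluble carrier that moves cholesterol between membranes and is a known SREBP target. Its brightest probe set read 38.7 untreated and 118.3 with IFNg, or 3.06-fold higher (log2 ratio 1.61), the highest of the 29 genes. The others read 34.4 and 113.9 (1.73) and 38.1 and 80.9 (1.09), so all 3 were past 2-fold. Untreated signals of Stard4 were dim, and raising the floor to 86.6, the pooled 75th percentile, left a bound of at least 0.45. Npc1, which exports cholesterol from late endosomes at the membrane, read 90.5 and 85.5 (-0.08). Npc2, its soluble partner in the lysosome, read 5281.3 and 5097.3 (-0.05), with 0.14 and -0.02 for further probe sets. Both lysosomal exporters were thus close to equal on the arrays.

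The efflux and oxysterol genes went different ways. Ch25h, which makes 25-hydroxycholesterol and is an interferon-induced gene in macrophages, read 219.3 and 420.7, or 1.92-fold higher (log2 ratio 0.94), just within 2-fold, by its single probe set. Abcg1, the pump that passes cholesterol to mature lipoproteins, read 75.3 and 37.8, or 1.99-fold lower (log2 ratio -0.99). It passed 2-fold lower with a common 75th percentile, with quantile normalization and with loess. Its log2 ratio was smaller with 16 added to each signal (-0.76) and with all probe sets averaged (-0.50), which takes in a probe set at the floor. With a floor at 86.6 it had no value. Abca1, the pump that loads lipid-poor apolipoprotein, read 286.9 and 352 (0.30), but dimmer probe sets gave -0.34 and 0.05, so its direction is not settled. Nr1h3, for the receptor LXR-alpha, read 38.7 and 42 (0.12), close to the floor. Ch25h and Abcg1 are also expressed by macrophages, whose marker signals were lower on the IFNg array as given above, and their part in either value was not tested.

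**Figure D3:**
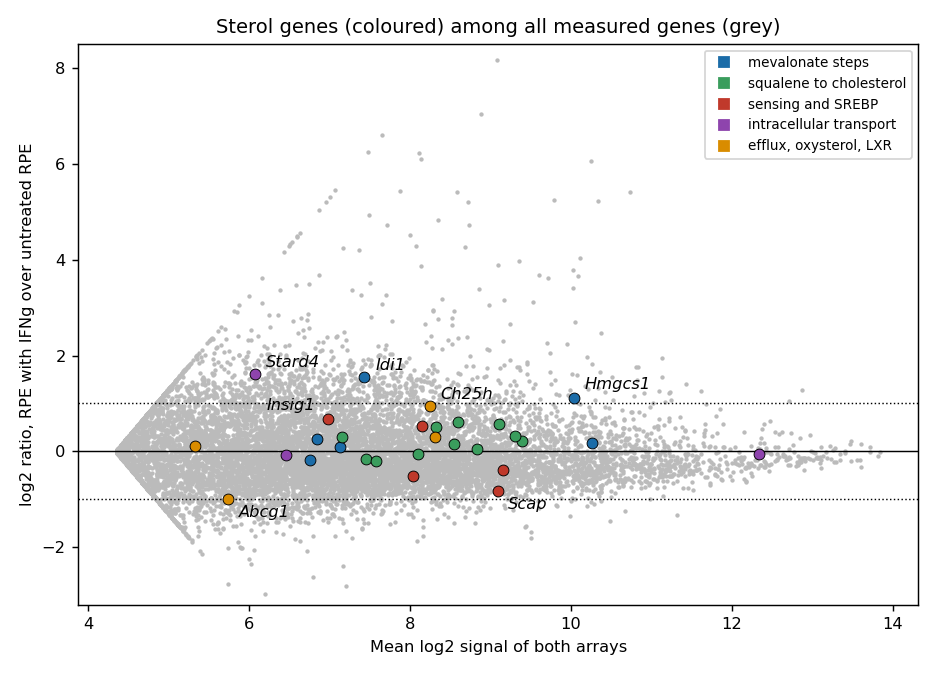
log2 ratio of RPE with IFNg over untreated RPE (vertical axis) against the mean log2 signal of both arrays (horizontal axis) for all 12743 measured genes (grey) and the 29 sterol genes (coloured by role). Dotted lines mark 2-fold; Stard4, Idi1 and Hmgcs1 lie above them, and Abcg1 lies at the lower line.

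Among other genes of sterol biology, 4 of 20 measured were 2-fold higher or more (20.0%, background 8.82%) and none 2-fold lower (background 4.48%), with a median log2 ratio of -0.04. Vldlr, a lipoprotein receptor gene, read 237.8 and 816.1, or 3.43-fold higher, by a probe set of shared sequence. Its 4 further measured probe sets had log2 ratios of 0.46 to 1.06. Mbtps2, for the protease that makes the final SREBP cut in the Golgi, read 73.9 and 167.1, or 2.26-fold higher. Cyp7b1, for the enzyme that breaks down 25-hydroxycholesterol, read 70.5 and 148.7, or 2.11-fold higher, with 0.73 for its other probe set. Rnf139, for a ubiquitin ligase of sterol-regulated degradation, read 266 and 549.4, or 2.07-fold higher, although a dim probe set under the floor with IFNg was lower (-0.46). With probe sets averaged, Mbtps2 was the only one of the 4 past 2-fold. The brightest of the list were Tspo (log2 ratio 0.20), Lrp1 (-0.29) and Mbtps1 (-0.46), the last for the protease that makes the first SREBP cut. A dim Lrp1 probe set went the other way, at 22.2 and 77.1 (1.80). A dimmer Mbtps1 probe set read 143.4 and 68.2 (-1.07), past 2-fold lower.

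The isoprenoid branch, which takes farnesyl diphosphate to prenylated proteins, dolichol and ubiquinone, had 1 gene 2-fold higher (11.1%, near the background of 8.82%) and 1 lower (background 4.48%) among 9 measured, with a median log2 ratio of -0.21. Pggt1b, for a subunit of a protein prenyltransferase, read 39.3 and 121.7, or 3.10-fold higher, with 1.00 and 0.90 for its other probe sets. Rce1, which trims prenylated proteins, read 168.3 and 78.9, or 2.13-fold lower. The brightest were Fnta (-0.21), Zmpste24 (0.61) and Coq2 (-0.24). Pdss1 was not analysed here.

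Fatty acid synthesis genes driven by SREBP1 did not share an excess. Of 13 measured, only the elongase gene Elovl6 passed 2-fold, with signals of 71.4 and 169.2 (2.37-fold higher) and 0.63 for its other probe set. That is 7.69% of the list, near the background of 8.82%, and the median over the list was -0.12. The desaturase genes Scd2 (0.04) and Scd1 (-0.12) and the malic enzyme gene Me1 (-0.44) were brightest. Their dimmer probe sets gave -0.22 and -0.83 for Scd2, -0.25 for Scd1 and 0.045 for Me1. Of 8 LXR target genes, 7 were below 0, against 57.5% of all measured genes, and the median was -0.27. None passed 2-fold, although Abcg1 did under the 3 scalings given above. That list shares Abca1, Abcg1 and Srebf1 with the sterol genes and Scd1 with the fatty acid genes. Its brightest genes were Pltp (-0.28), Scd1 (-0.12) and Lpcat3 (-0.63). In these related lists, a floor at 86.6 took Mbtps2, Cyp7b1, Pggt1b, Rce1 and Elovl6 within 2-fold, as bounds. Averaging of all probe sets took Pggt1b and Elovl6 within 2-fold, a common 75th percentile took Rnf139 there, and adding 16 to each signal in place of the floor took Cyp7b1 and Rce1 there. Calls were also gained: Ggps1, for the synthase of geranylgeranyl diphosphate, was 2-fold higher without probe sets of shared sequence (its probe sets ran from 0.11 to 1.76), and the lipogenic gene Thrsp was 2-fold lower with a floor at the 25th percentile and with 16 added.

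**Figure D4:**
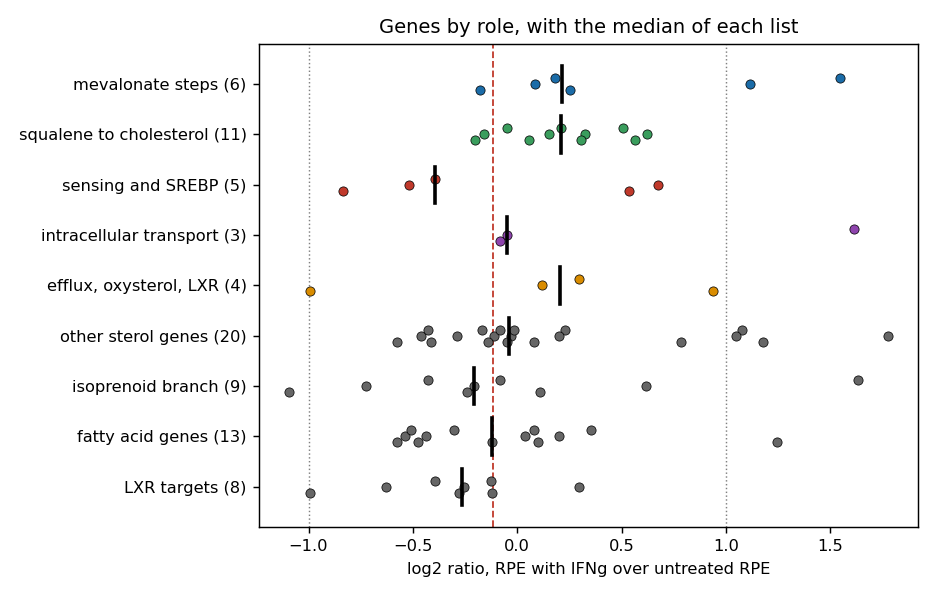
log2 ratio of RPE with IFNg over untreated RPE (horizontal axis) for each measured gene, by role and for 4 related lists in grey, with the number of genes in brackets. Black bars are list medians, the red dashed line is the median of all measured genes (-0.12) and dotted lines mark 2-fold; the mevalonate and squalene lists have medians of 0.22 and 0.21, and sensing genes lie on both sides of 0.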

How the data were processed

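Biotin-labelled cRNA from 2 cultures was hybridised to 1 array each, per the labels' protocols. The authors deposited 1 linear intensity per probe set and array, and the values have a mean of 100 once 2% is trimmed from each end. How probe sets were summarised or called detected was not given in the sources used here. Depth has no meaning for arrays, and their number limits the precision.

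Arrays were scaled to a common trimmed mean, 64 control probe sets were left out, values under the pooled median were raised to it, and log2 was taken. The floor stands in for detection calls. Genes were named from the platform's probe annotation, using only the 34945 probe sets with 1 gene (932 have several and 9160 none), and no sterol probe set named several. All member symbols stand in the RefSeq gene table. With 1 array per group, 2-fold served as the threshold and no test was made. All members were named. In related lists, genes past 2-fold and the 3 brightest were named, and in marker lists those at the floor on both arrays and the 3 brightest. Further marker genes were named after their values were seen. The members and lists were chosen with earlier results of these data known. Alternatives were other scalings, floors, a pseudocount of 16, probe-set rules and thresholds. The procedure was also run on simulated arrays without noise, where ratios were planted alike in all probe sets of genes far above the floor. That run checks the code only. It cannot show how dim genes such as Stard4, or probe sets that differ, behave. Software was matplotlib 3.10.9, statsmodels 0.14.6, scipy 1.17.1 and pandas 2.3.3 under Python 3.11.15.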

Additional observations from a re-analysis of the deposited data

How the results depend on the processing

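The count of sterol genes at least 2-fold higher was 3, for Hmgcs1, Idi1 and Stard4. It held, for the same genes, with a common 75th percentile, quantile normalization, loess and a pseudocount of 16. Unscaled values, a floor at the 25th percentile and leaving out probe sets of shared sequence also gave 3, but could not change these genes. Both arrays already had a trimmed mean of 100. The brightest probe sets of the 3 genes were above the floor on both arrays and not of shared sequence. The count was 2 with a floor at the 75th percentile (Stard4 at a bound of 0.45). It was also 2 with probe sets above the floor averaged, an alternative chosen after seeing the data. It was 1, Stard4, with all probe sets averaged, where those at the floor count as 0. It was 6 at 1.5-fold, adding Ch25h, Insig1 and Sc5d (background 18.0%). At 3-fold it was 1, Stard4 at 3.06-fold, and the background share at that threshold was not counted. The count 2-fold lower, 0, became 1 (Abcg1) with a common 75th percentile, quantile normalization or loess, and 2 (Abcg1 and Scap) at 1.5-fold (background 18.7%). The number above 0 ranged from 18 to 20, and the median log2 ratio of the sterol genes from 0.09 to 0.23. Values that moved by more than the probe-set spread of all genes (0.44) were those of Stard4 above, Idi1 (0.96) and Sc5d (0.16) with probe sets averaged in either way, Abcg1 (-0.50) with all averaged, and Lss (0.42) without shared sequence. By the smaller spread of the sterol genes (0.34), Scap (-0.42) with all averaged and Cyp51 (0.87) with those above the floor averaged moved too. No called value changed sign. Among genes not called, Lss, Mvd, Ebp, Abca1, Npc2 and Nr1h3 lay on both sides of 0 across the alternatives. The median of the transport genes ran from -0.13 to 0.08. No paired analysis was possible because each group has 1 array, and for the same reason no replicate could be left out. The background in dim signals is unknown, so folds of dim genes such as Stard4, Abcg1 and Nr1h3 are uncertain in size.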
